A study of Caenorhabditis elegans with 2 samples.

Results

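The histone genes of Caenorhabditis elegans are the protein-coding genes of the WBcel235 annotation whose symbol starts with his-, which gave 72 genes of 19973 nuclear protein-coding genes. They were described here by the chromatin immunoprecipitation and sequencing (ChIP-seq) peaks of CEBP-1, a transcription factor of the C/EBP bZIP family, that lie in their promoters. Both libraries came from strain OP563, genotype unc-119(tm4063) III with the integrated transgene wgIs563, which makes CEBP-1 with GFP and FLAG at its C-terminal end. The chromatin came from whole worms of both sexes, pooled, collected as young adults 63 hours after synchronization of starved L1 larvae, sheared by sonication and precipitated with an antibody against GFP. The genotype names no change in the worm's own cebp-1 gene, and the sequence that drives the transgene is not given in the sources used here. The 2 libraries are biological replicates of 1 group, numbered 3 and 7, so no test between groups was possible. A peak from whole worms does not tell in which cells the tagged protein was bound, and peaks of a strain without the tag were not analysed here.

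Histones are the proteins around which DNA is wound. Octamers of the core histones H2A, H2B, H3 and H4 form the nucleosome, and H1 binds the DNA between nucleosomes. Most core histone genes are short, have no introns, are transcribed during DNA replication, and lie in clusters in which an H2A gene faces an H2B gene, or an H3 gene an H4 gene, across a short shared promoter. A few genes outside the clusters have introns and make replacement histones, such as H3.3, that are laid down also when DNA is not being copied. CEBP-1 has been studied in C. elegans mainly in neurons, where regrowth of cut axons needs it.

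By the product names of RefSeq, the 72 genes held 17 H2A, 16 H2B, 20 H3, 16 H4 and 1 H1 gene, and 2 short genes with only a histone domain named, his-39 and his-73. A gene was called clustered where another his- gene lay within 5 kb of it. By that rule 67 genes fell into 14 clusters, and 5 were isolated, namely his-24 (the H1 gene), his-71 and his-72 (H3.3), his-74 (H3.3-like) and the short his-73. The rule goes by distance only, so the clustered genes include some with introns, his-35, his-37, his-41 and his-57. They also include his-69 and his-70, named H3.3-like. The clustered genes formed 31 head-to-head pairs, 16 of H2A with H2B, 14 of H3 with H4 and 1 of H2A with H4, with between 227 and 368 bp, median 258 bp, between the 5′ ends of a pair.

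The sequences on which the results turn are shown as stretches of 101 bases of the WBcel235 (ce11) genome as held by RefSeq, each 5′ to 3′. The first is centred on the strongest CEBP-1 summit in a histone promoter, upstream of the H4 gene his-37 (chrV:9546970-9547070, plus strand). The second is centred on the summit in the shared promoter of his-35 (H2A) and his-41 (H2B) (chrV:9545401-9545501, plus strand). The third is centred on the strongest summit inside a histone gene, in his-72 (chrIII:12368572-12368672, minus strand). The other 4 are the centres of promoters shared by an H3 and an H4 gene, read towards the H3 gene, at none of which a summit was listed: his-10 and his-9 (chrII:13823461-13823561, plus strand), his-50 and his-49 (chrV:8847773-8847873, plus strand), his-60 and his-59 (chrIV:7488070-7488170, plus strand), and his-2 and his-1 (chrV:16042351-16042451, minus strand). Capitals mark TATAAA, the letters GGGGACAC or their reverse complement GTGTCCCC, and TTTCGCAA, the reverse complement of TTGCGAAA.
his-37 summit: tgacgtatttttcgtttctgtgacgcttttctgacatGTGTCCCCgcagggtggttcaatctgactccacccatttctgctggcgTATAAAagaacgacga
his-35 and his-41 summit: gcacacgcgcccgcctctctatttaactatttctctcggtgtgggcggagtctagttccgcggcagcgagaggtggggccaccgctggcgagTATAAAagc
his-72 summit: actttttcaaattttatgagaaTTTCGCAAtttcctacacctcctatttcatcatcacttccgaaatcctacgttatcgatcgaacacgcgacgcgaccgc
his-10 and his-9: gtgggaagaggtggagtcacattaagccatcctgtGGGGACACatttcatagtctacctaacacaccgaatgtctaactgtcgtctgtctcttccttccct
his-50 and his-49: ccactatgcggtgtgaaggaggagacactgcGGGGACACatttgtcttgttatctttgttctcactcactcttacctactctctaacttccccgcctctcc
his-60 and his-59: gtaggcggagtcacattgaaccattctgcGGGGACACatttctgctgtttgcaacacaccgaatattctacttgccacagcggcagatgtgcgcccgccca
his-2 and his-1: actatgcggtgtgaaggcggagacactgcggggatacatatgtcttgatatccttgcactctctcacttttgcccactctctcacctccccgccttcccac

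CEBP-1 peaks were listed in the promoters of 12 of the 72 histone genes in the optimal list of 5982 peaks. The 12 genes were his-35, his-37, his-41, his-46, his-59, his-61, his-62, his-64, his-66, his-67, his-68 and his-72. The authors thresholded this list by the irreproducible discovery rate (IDR), which scores the agreement of peak ranks between replicates. All 5982 peaks were also in the list from the pooled alignments, where 5982 peaks reached the lowest optimal signal. The optimal list thus held the strongest pooled peaks, and a single peak in it need not have a summit in both replicates. A gene was counted where a summit lay from 1000 bp upstream to 200 bp downstream of its annotated 5′ end. The share was 16.7% of histone genes (95% Wilson interval 9.80 to 26.9%) and 14.9% of all protein-coding genes, so the histone genes stood near the background. Of the clustered genes 11 of 67 had such a summit (16.4%), and of the isolated genes 1 of 5, his-72. Depth is unknown because the lists hold no read counts, and intervals here cover counting error only. Genes that share a promoter or a peak are not independent, and the difference was not tested.

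By histone class, an optimal promoter summit was listed for 3 of 17 H2A genes, 3 of 16 H2B genes, 2 of 20 H3 genes, 4 of 16 H4 genes, and neither for the H1 gene nor for the 2 short genes. Of the 8 histone genes with more than 1 exon, 4 had one (his-35, his-37, his-41 and his-72) and 4 did not (his-24, his-57, his-71 and his-74). Of the 64 genes with 1 exon, 8 had one (12.5%). The split by exons was chosen after the values were seen, and his-35, his-37 and his-41 lie in 1 locus.

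The longer lists, of 30000 peaks each, which hold peaks and background, gave histone shares close to or below those of all genes. The list from the pooled alignments had a promoter summit for 19 histone genes (26.4%, against 28.8% of all protein-coding genes). The replicate 3 list had one for 18 histone genes (25.0%, against 29.3% of all), and the replicate 7 list for 22 (30.6%, against 32.0% of all). Over all 4 lists 24 histone genes had a promoter summit somewhere (33.3%, against 37.9% of all protein-coding genes) and 48 had none. The H3 gene his-63 was the nearest to the optimal list from outside, with a pooled signal of 143 at rank 6152. The weakest members inside were his-72 and his-66, with a signal of 150 each at ranks 5891 and 5892, and the lowest signal of the optimal list was 148.

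The strongest CEBP-1 peak in a histone promoter belonged to his-37, an H4 gene of the cluster of his-35, his-41 and his-37 on chromosome V. Its summit lay 85 bp upstream of the 5′ end, in a peak at chrV:9546781-9547416, with a signal of 1669 and rank 251 of the 5982 optimal peaks. The signal was 1246 in replicate 3 and 423 in replicate 7. To set replicates side by side, each signal was divided by the median signal of the same replicate over all optimal peaks, 204 in replicate 3 and 112 in replicate 7. On this relative scale the his-37 summit stood at 6.12 in replicate 3 and 3.78 in replicate 7, or 4.95 ± 1.65 (SD, n = 2), so it was above the typical optimal peak in both. A further summit in the same interval lay 117 bp downstream of the 5′ end, inside the gene, with a signal of 241. It stood at 0.349 in replicate 3 and 1.19 in replicate 7, on either side of the typical peak.

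The H2A gene his-35 and the H2B gene his-41 of that cluster share a promoter of 247 bp, and 1 optimal summit lay in it (chrV:9545337-9545605), 163 bp upstream of his-35 and 85 bp upstream of his-41. Its signal was 323, rank 2747. Replicate 3 had a signal of 307, or 1.51 times its median. No summit of replicate 7 lay within 100 bp, nor anywhere in the his-41 promoter, so of the 2 replicate lists only that of replicate 3 held this peak. The gene C50F4.6 has the same summit in its promoter. Another optimal summit lay 234 bp past the 3′ end of his-35, with a signal of 416 and a relative signal of 1.24 ± 0.498 (SD, n = 2). With 4 optimal summits within 1 kb, this was the histone locus with the most.

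**Figure D1:**
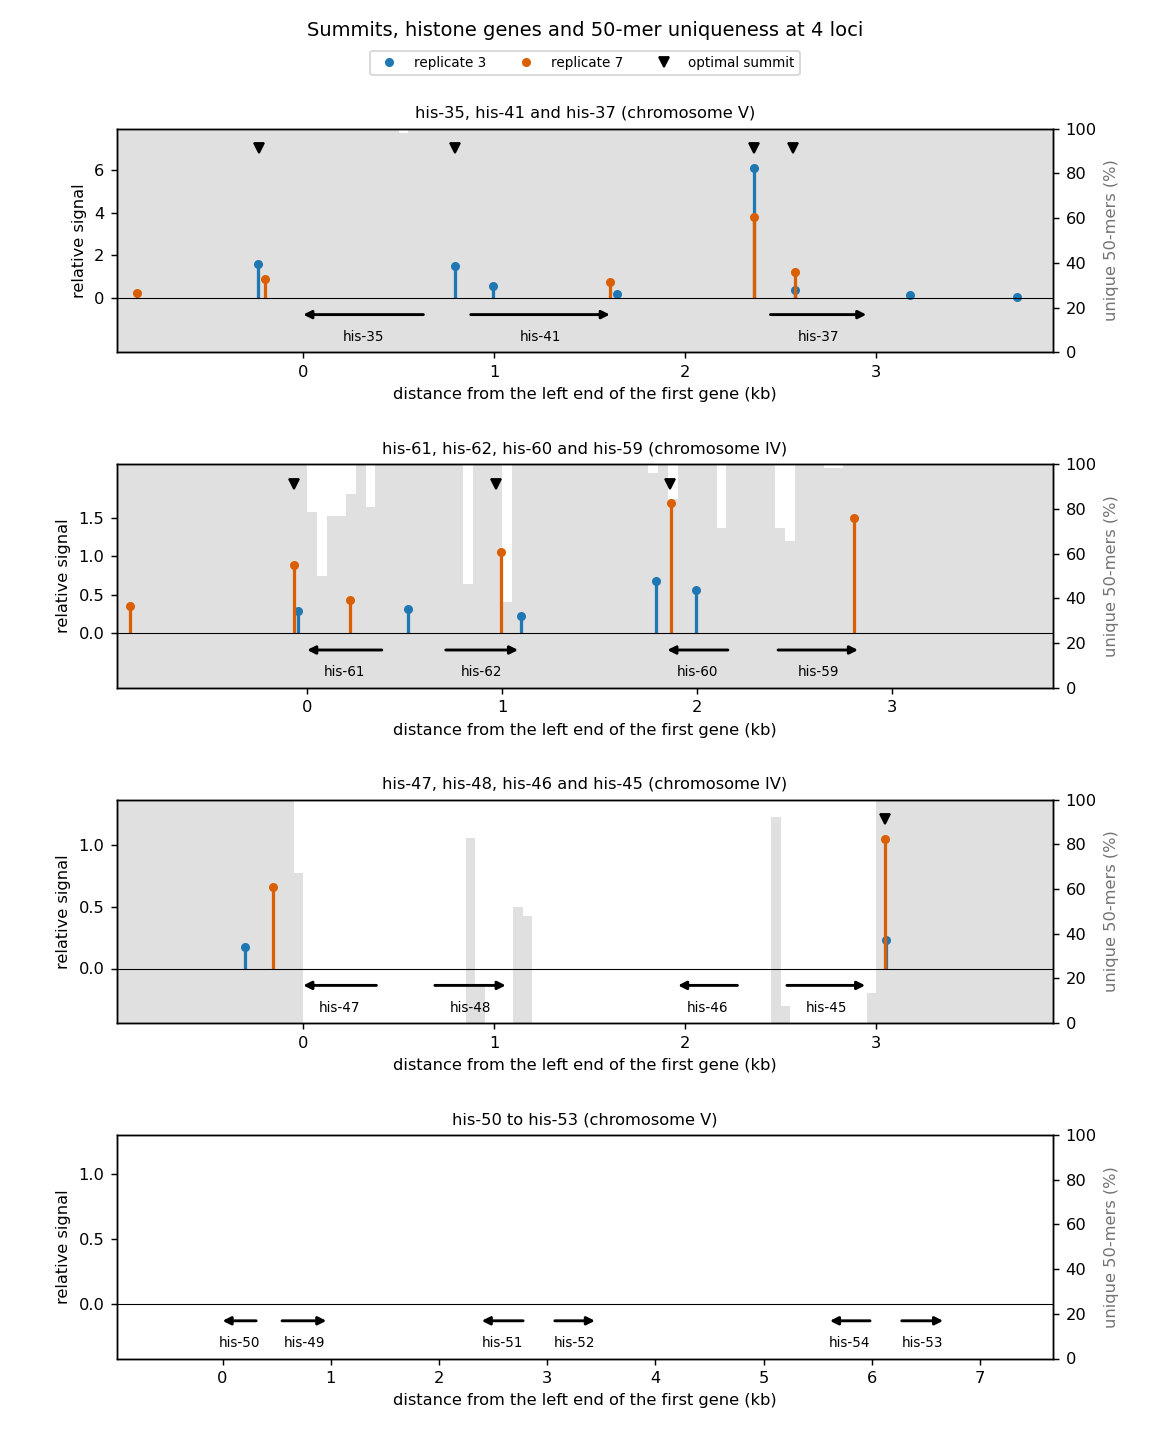
Summits around 4 histone loci, by distance from the left end of the first gene in kb. Stems give the relative signal (left axis, linear, a different range in each panel) of every listed summit in replicate 3 (blue) and replicate 7 (orange), triangles mark optimal summits, arrows the genes from 5′ to 3′, and grey the percent of 50-base windows found once in the genome (right axis). The his-37 promoter carries the highest stems, the his-61 locus has its optimal summits at gene 3′ ends, the his-47 locus has stems only at its edges, where the grey begins, and the locus of his-50 to his-53 has neither stems nor grey.

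The H4 gene his-67 and the H2A gene his-68 on chromosome I share the other head-to-head promoter that held an optimal summit, at chrI:9988826-9989117. It lay 174 bp upstream of his-67 and 195 bp upstream of his-68, with a signal of 175 and rank 5089. The relative signal was 0.674 in replicate 3 and 0.351 in replicate 7, below the typical optimal peak in both. The Argonaute gene alg-5 has the same summit in its promoter. Of the 31 head-to-head promoters, these 2 were thus the ones with an optimal summit. The pooled list added the promoter of his-61 and his-62, for 3 of 31.

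In the H3.3 gene his-72 the main peak lay inside the gene. Its promoter summit, 633 bp upstream (chrIII:12369535-12369818), was weak, with a signal of 150, and stood at 0.671 in replicate 3 and 0.206 in replicate 7. The gene rpt-6, for a proteasome subunit, has the same summit in its promoter. A summit 428 bp downstream of the annotated 5′ end had a signal of 1610, rank 267 (peak at chrIII:12368314-12369319). Its relative signal was 4.46 in replicate 3 and 6.43 in replicate 7, or 5.44 ± 1.39 (SD, n = 2). Both replicates had it above the typical optimal peak, and by optimal signal it came next to the his-37 promoter summit. By relative signal it stood above that summit in replicate 7 and below it in replicate 3. It lay 458 bp upstream of the 5′ end of a shorter annotated his-72 transcript. A lesser summit in that interval, 229 bp downstream of the annotated 5′ end, had a signal of 303 and relative signals of 0.544 in replicate 3 and 1.56 in replicate 7.

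The other isolated genes had no optimal promoter summit. The H3.3-like gene his-74 had an optimal summit 70 bp past its 3′ end, with a signal of 495 and a relative signal of 1.62 ± 0.266 (SD, n = 2). The H1 gene his-24 had a promoter summit in replicate 7 only, with a signal of 70.7 at rank 5394, 62 bp downstream of its 5′ end. For his-71, the other H3.3 gene, and for his-73 no list held a promoter summit. The 2 H3.3 genes thus differed in these lists, since his-72 had 3 optimal summits within 1 kb and his-71 had no summit in any list there.

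The other 6 optimal summits in histone promoters all lay on chromosome IV and all lay within 250 bp of the 3′ end of a neighbouring histone gene. They counted for his-59 (H3), his-61 (H2A), his-62 (H2B), his-46 (H4), his-64 (H4) and his-66 (H2B) because those genes begin less than 1000 bp away. The summit counted for his-59 lay 12 bp before the 3′ end of his-60, that for his-61 lay 115 bp before the 3′ end of his-62, and that for his-62 lay 65 bp past the 3′ end of his-61. In the other clusters, the summit counted for his-46 lay 101 bp past his-45, that for his-64 106 bp past his-63 and that for his-66 219 bp past his-65. Each of these 6 summits was nearer to the 5′ end of another gene than to that of the gene it counted for. For the his-46 summit that gene was B0035.21, 161 bp away.

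The strongest of the 6 was the summit counted for his-59 (chrIV:7487438-7487987), with a signal of 328 and rank 2694. It had a signal of 138 in replicate 3 and 189 in replicate 7, and a relative signal of 1.19 ± 0.720 (SD, n = 2). The 5 others had optimal signals from 150 to 165, at ranks 5390 to 5892, so they lay at the weak end of the optimal list. The weakest relative signal in replicate 3 was 0.224, at his-64, where replicate 7 had 0.914. At his-61 replicate 7 had 1.06 and replicate 3 had no summit within 100 bp. With a matching distance of 200 bp both replicates had a summit there, and the mean relative signal was 0.637.

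Counted by gene ends, an optimal summit within 250 bp of the 3′ end, and nearer to it than to the 5′ end, was listed for 8 of 72 histone genes (11.1%, against 5.96% of all protein-coding genes). Within 250 bp of the 5′ end, and nearer to that, one was listed for 6 histone genes (8.33%, against 8.42% of all). The 8 genes were his-35, his-45, his-60, his-61, his-62, his-63, his-65 and his-74. In the pooled list the share at the 3′ end was 19.4% of histone genes and 19.1% of all, with no excess. Among the strongest 5982 peaks of each replicate it was 4.17% of histone genes and 4.95% of all in replicate 3, and 19.4% of histone genes and 6.71% of all in replicate 7. The distance of 250 bp was chosen after the values were seen. The histone genes are short, so a 3′ end lies close to the promoter of the next gene. All ends are those of the annotation, in which every 1-exon H4 gene has 312 bp and every 1-exon H2A gene 384 bp. Whether these lengths hold untranslated parts was not checked, so the ends may not be those of the transcripts.

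The 2 replicates ranked the histone promoters differently. Among the strongest 5982 peaks of replicate 3 a promoter summit was listed for 8 histone genes (11.1%, against 15.7% of all genes), below the background. Among the strongest 5982 of replicate 7 one was listed for 16 histone genes (22.2%, against 13.5% of all genes), above it. Both had his-35, his-37, his-59, his-60, his-67 and his-68. Within these strongest peaks, summits of the 2 replicates lay within 100 bp of each other for his-37 and his-59, 2 of these 6 genes. For his-35, his-60, his-67 and his-68 the strongest peaks of the 2 replicates had different summits. Further down its list, at rank 11557, replicate 7 also had the summit in the shared promoter of his-67 and his-68. Replicate 3 alone had his-41 and his-72. Replicate 7 alone had his-24, his-46, his-48, his-58, his-61, his-62, his-63, his-64, his-65 and his-66, of which all but his-24 lie on chromosome IV.

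The same split showed in the signal of the optimal peaks. A summit of both replicates lay within 100 bp for 9 of the 11 optimal promoter summits, and the log2 ratio of relative signals, replicate 3 over replicate 7, had a median of -1.63 there. Over the 5251 optimal peaks matched in both, the median ratio was 0.13, with 5th to 95th percentiles of -1.61 to 1.48. The ratio lay between -2.20 and -1.32 at all 5 matched summits on chromosome IV, each stronger in replicate 7. Over all 815 matched optimal peaks of chromosome IV the median was 0.08. The 5 matched histone summits on chromosome IV also lay within 250 bp of a histone gene's 3′ end, and the 4 on other chromosomes did not. Chromosome and position thus cannot be told apart among these 9 promoter summits. Of the 4 matched summits on chromosomes I, III and V, those upstream of his-37 (0.69), his-67 and his-68 (0.94) and his-72 (1.70) were stronger in replicate 3. The summit inside his-37 (-1.77) was stronger in replicate 7. Outside the promoters, the chromosome V summit 234 bp past the 3′ end of his-35 had relative signals of 1.59 in replicate 3 and 0.890 in replicate 7. The summit 70 bp past the 3′ end of his-74, also on chromosome V, had 1.43 and 1.81 in the same order. With 2 replicates, what moves with the difference between them was not tested.

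**Figure D2:**
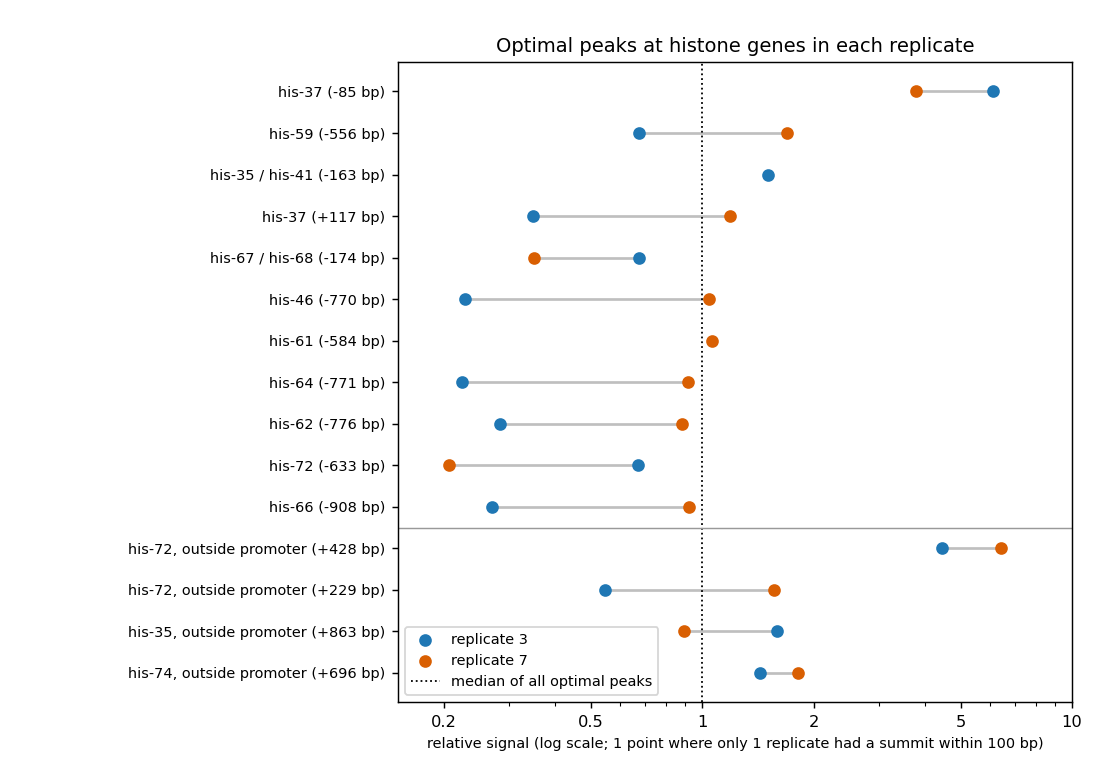
Relative signal (log scale, 1 is the median over all optimal peaks) in replicate 3 (blue) and replicate 7 (orange) at the 11 optimal summits in histone promoters and, under the line, the 4 other optimal summits within 1 kb of a histone gene, labelled with the distance from the 5′ end in bp. The his-37 summit at -85 bp and the his-72 summit at +428 bp stand above 3 in both replicates, while the summits counted for his-46, his-64, his-62 and his-66 lie between 0.224 and 0.284 in replicate 3 and between 0.881 and 1.04 in replicate 7.

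Much of the histone promoter sequence occurs more than once in the genome, and a read that lies wholly in such a stretch matches more than 1 place. The share of 50-base windows of a promoter found once in the genome had a median of 25.3% over the 72 histone genes and of 100% over the other protein-coding genes. It was 21.8% over the clustered and 100% over the isolated histone genes. In 36 of the 72 genes the 200 bp upstream of the 5′ end were identical in another histone gene, and 16 of the 31 head-to-head promoters were identical to another. Between the 5′ ends of a pair, 17 of 31 promoters held no unique 50-base window. In 35 of the 67 clustered genes the gene itself held none. The 300 bp past the 3′ end of a clustered gene had a median of 78.1% unique windows, against a median of 0% between the 5′ ends of a pair.

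Listed peaks followed this division. In the 28 histone genes with under 10% unique windows in the promoter no summit was listed in any of the 4 lists (95% Wilson upper bound 12.1%), and neither was one in the 218 other genes of that kind. Of the 25 histone genes with 10 to 90%, 3 had an optimal promoter summit (12.0%), and of the 1804 other genes 8.37%. Of the 19 histone genes with 90% or more, 9 had one (47.4%, Wilson interval 27.3 to 68.3%), and of the 17879 other genes 15.8%. The limits of 10% and 90% were chosen after the values were seen. The intervals count each gene separately, although many histone promoters are identical copies and some genes share a summit. The 9 genes are his-35, his-37, his-41, his-59, his-61, his-62, his-67, his-68 and his-72, which lie at 4 loci. Of these, his-59, his-61 and his-62 counted only through a summit within 250 bp of a neighbouring histone gene's 3′ end. The 10 without an optimal promoter summit are his-2, his-24, his-31, his-32, his-40, his-60, his-69, his-70, his-71 and his-74. The read length and the treatment of reads with several placements are not given in the sources used here, and the part of repeated sequence in these counts was not tested.

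**Figure D3:**
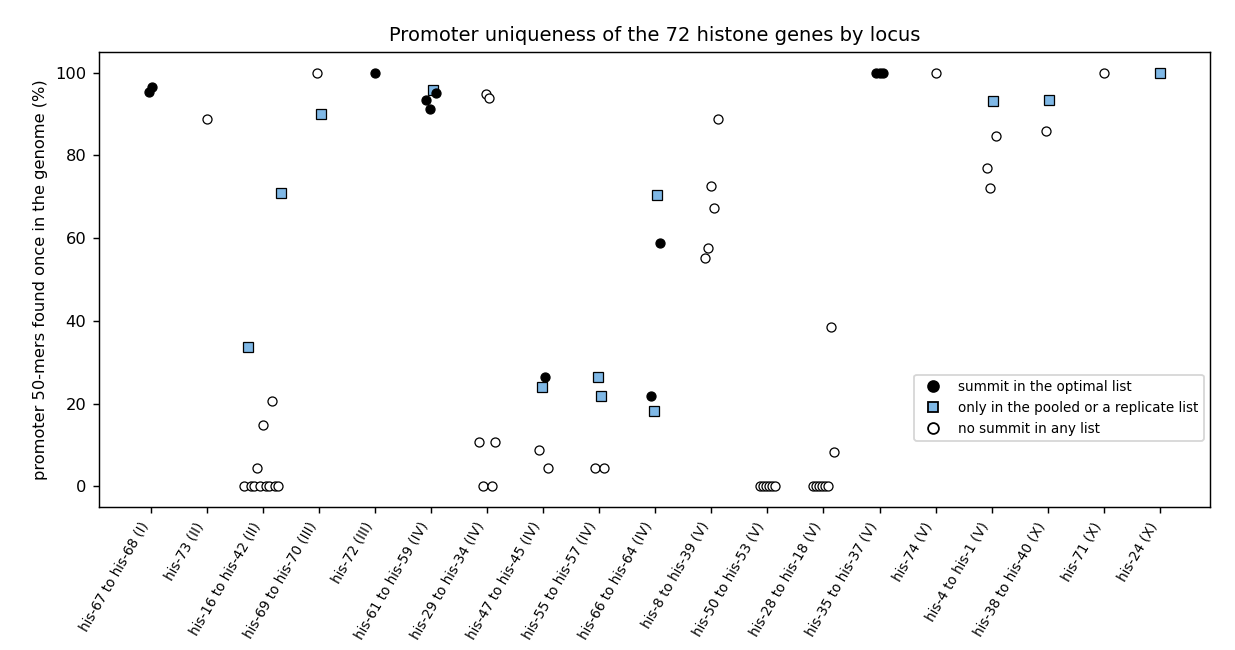
Percent of 50-base windows of each histone promoter found once in the genome, by locus (chromosome in brackets), 1 point a gene. Black points have an optimal promoter summit, blue squares a summit only in the pooled or a replicate list, and open points none. The open points fill the bottom of the plot, where all 28 genes under 10% lie, but some also stand at or near 100%, such as his-71 and his-74.

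**Figure D4:**
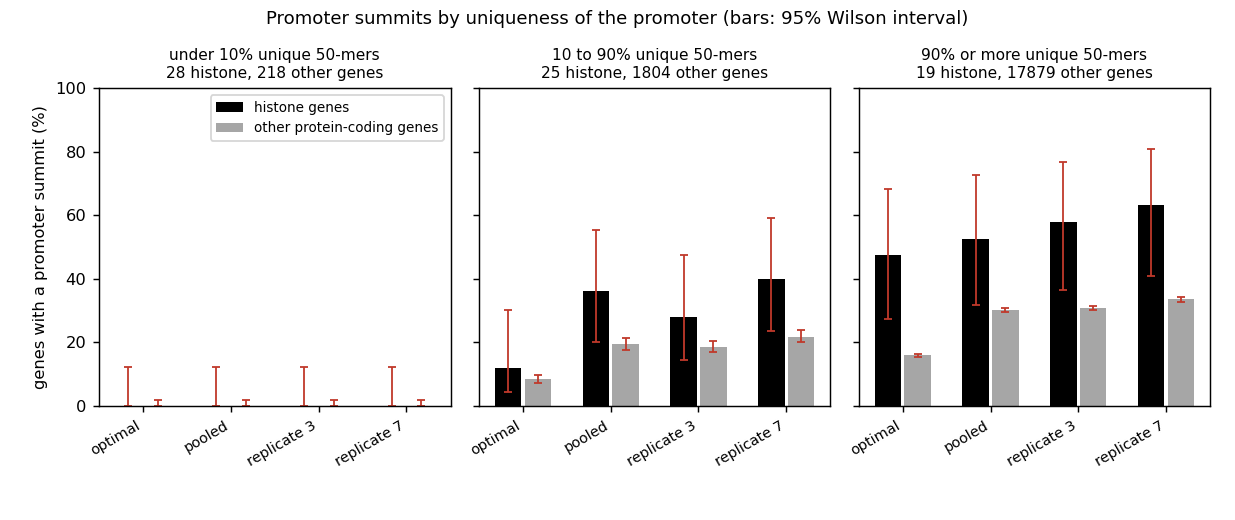
Percent of histone genes (black) and of other protein-coding genes (grey) with a promoter summit in each list, split by the percent of unique 50-base windows in the promoter, with 95% Wilson intervals (red) that cover counting error only. In the left panel every share is 0, and in the right panel 47.4% of histone genes and 15.8% of other genes have an optimal summit. That histone share includes his-59, his-61 and his-62, whose summits lay within 250 bp of a neighbouring histone gene's 3′ end.

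The same could be seen cluster by cluster. The cluster with the most genes, 13 genes from his-16 to his-42 on chromosome II over 10.9 kb, had 7.58% unique windows. It had no optimal summit within 1 kb, and its 3 pooled summits all lay outside the outermost genes. The cluster of his-50 to his-53 on chromosome V, 6 genes, had no unique 50-base window and no summit in any list. The cluster of his-28 to his-18 on chromosome V, 8 genes, had 1.62% unique windows and no summit in any list. In the cluster of his-47, his-48, his-46 and his-45, with 5.18%, both pooled summits lay outside the outermost genes, and 1 of them was the optimal summit counted for his-46. Clusters without an optimal summit are named here after their values were seen.

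Among clusters with mostly unique windows, some had listed peaks and some had no pooled summit. The cluster of his-61, his-62, his-60 and his-59, with 93.1% unique windows, had 3 optimal and 7 pooled summits within 1 kb. The cluster of his-4, his-3, his-2 and his-1, with 79.6%, had no pooled summit there, and that of his-69 and his-70, with 99.4%, had none either. Of the 10 head-to-head promoters with 90% or more unique windows between the 5′ ends, 2 held an optimal summit and 3 a pooled one. In all, 7 of the 14 clusters, with 33 genes, had no pooled summit within 1 kb. Few optimal summits lay in repeated sequence: 7 of the 5982 (0.117%) were in a window of 151 bp with no unique 50-base window, against 3.46% of positions sampled every 1000 bp along the genome.

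A short sequence recurred in these promoters. The letters GGGGACAC, on either strand, were found within 300 bp upstream of 44 of the 72 histone genes (61.1%) and of 104 of all 19973 protein-coding genes (0.521%), so 60 genes that are not his- genes had them. The letters were picked after the sequences printed above had been read, so this is a description. Head-to-head partners share a stretch and many of these promoters are identical copies, so the 44 genes are not separate occurrences. By class they were found for 13 of 17 H2A genes, 12 of 16 H2B genes, 8 of 20 H3 genes, 10 of 16 H4 genes and the H1 gene. They lay in 21 of the 31 head-to-head promoters, among them those of his-10 and his-9, his-50 and his-49, and his-60 and his-59. They were not in the stretch shown of his-2 and his-1. Of the 12 genes with an optimal promoter summit 7 had them. Of the 11 summits in histone promoters, the one upstream of his-37 had the letters within 50 bp, on the minus strand, and 0.435% of all optimal summits did.

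The letters of C/EBP sites were not found in histone promoters. TTGCGCAA, TTACGTAA and TTGCGTAA, searched on both strands from 1000 bp upstream to 200 bp downstream, were in 0 of 72 histone promoters and in 1.97%, 1.16% and 2.63% of all protein-coding promoters, in that order. At all optimal summits they were rare too, within 50 bp of 0.669%, 0.0669% and 0.552%. The variant TTGCGAAA was in 0 of 72 histone promoters, in 10.1% of all promoters, and within 50 bp of 14.9% of all optimal summits. It was within 50 bp of the his-72 summit inside the gene, as its reverse complement TTTCGCAA, and of none of the 11 promoter summits. TATAAA, the core of the TATA box, was in 65 histone promoters (90.3%, against 80.0% of all), and within 50 bp of 3 of the 11 promoter summits, at his-37, his-35 with his-41, and his-62, and of 6.08% of all optimal summits. CACGTG was in 6.94% of histone promoters and in 18.4% of all. Lack of a match says only that these letters are not in these windows.

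Genes outside the his- family that carry or handle histones were set beside these, from a list of 26, of which 10 had an optimal promoter summit (38.5%, against 14.9% of all protein-coding genes). The list was chosen with earlier results known, and the difference was not tested. The strongest was hat-1, for a histone acetyltransferase, with a signal of 6637 and rank 12, and a relative signal of 20.4 ± 3.48 (SD, n = 2), so above every his- gene. The next were lin-53, a histone chaperone, with a signal of 1219, htz-1, the H2A.Z variant, with 890, and unc-85, an H3 and H4 chaperone of the ASF1 family, with 628. The hat-1 summit lies inside the gene M03C11.3, the lin-53 summit is also in the promoter of nra-2, and the htz-1 summit lay nearer to the 5′ end of wapl-1, 166 bp away, than to that of htz-1. The strongest unc-85 summit lay in a window with no unique 50-base stretch. The chaperone subunit spt-16 had a signal of 378, and cdl-1, the stem-loop binding protein that processes histone messenger RNA, 276, with no replicate 3 summit within 100 bp. The chaperone subunit chaf-2 had 235, at a summit shared with the promoter of Y71G12B.30, the centromeric H3 gene hcp-3 had 224, and the histone chaperone genes nasp-2 and nasp-1 had 200 and 186. None of the H1 genes hil-1 to hil-8 had an optimal promoter summit.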

How the data were processed

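ChIP-seq peaks of tagged CEBP-1 were taken from 4 lists in the ce11 build (WBcel235), 1 for each replicate, 1 for the pooled alignments and the optimal IDR-thresholded list. Per the labels and the text files deposited with the lists, each was made by the authors against a control. The peak caller, aligner, read length and IDR threshold are not given in the sources used here. For each peak the authors deposited a signal value, a −log10 q-value and a summit position counted from the peak start. The signal is the authors' own and served only to describe and rank peaks within a list. The lists in the ce10 build were not used.

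Genes came from the Ensembl 115 annotation, with symbols and products from RefSeq by WormBase ID, since 22 histone genes differ in symbol. Uniqueness was counted over 50-base windows on both strands. Named genes were every histone gene with an optimal promoter summit, every isolated one, the nearest outside the list, the largest cluster, clusters with an optimal summit, and the other histone-related genes with one. The genes, lists and motifs were chosen with earlier results of these data known. The counting of promoter summits, the uniqueness count and the grouping into clusters were tested on simulated data. The matching of summits between replicates was not tested in that way. Python 3.11.15 with pandas 2.3.3 and numpy 2.4.6 was used.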

Additional observations from a re-analysis of the deposited data

How the results depend on the processing

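No paired analysis was possible because both replicates belong to 1 group. The count of 12 histone genes with an optimal promoter summit was 5 with promoters from 500 bp upstream to 100 bp downstream, 4 with the stronger 50% of the optimal peaks, 4 when a summit counted for the nearest 5′ end only, and 6 without summits within 250 bp of a histone gene's 3′ end, an alternative chosen after seeing the data. In the same order of the first 3 settings, the 11 clustered genes became 5, 4 and 3, and the 1 isolated gene became 0 with the shorter promoter and 0 with the stronger 50%. Replacing the optimal list by the strongest peaks of 1 replicate gave 8 to 16 histone genes, 7 to 15 clustered genes and 1 to 1 isolated gene, which was his-24 without replicate 3 and his-72 without replicate 7. The 10 other histone-related genes became 5 with the stronger 50% and 11 without replicate 3 or replicate 7 alone. Counting histone promoters with a strong peak in 1 replicate, replicate 3 had 8, or 3 when only the top 50% of the limit was used and 18 over all listed peaks, and replicate 7 had 16, or 5 with the top 50%. The median relative signal of 0.595 lay between 0.510 and 0.981 with 1 replicate left out. Fewer peaks or shorter promoters can only leave the same number of summits or fewer, and the cause of these changes was not tested. Promoters from 2000 bp upstream to 500 bp downstream, and counting any overlap of a peak, each gave 14 histone genes. With all annotated transcripts the count stayed at 12. Depth could not be judged, since the lists hold no counts.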
